A study of Mus musculus with 17 samples.

Results

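Of 17 Affymetrix 2.0 ST arrays, each of total RNA from a mouse embryo taken whole at E12.5, the 6 of the CH line are described here as a more mature side and a less mature side. The more mature side holds 3 arrays, homozygotes 2 and 4 and heterozygote 2 of that line. The less mature side holds the other 3, homozygotes 1 and 3 and heterozygote 1. The sides were chosen by their high or low cartilage genes on these same arrays, so every difference between them is given as a description with no test, and "mature" is a working name for that choice and not a recorded stage. Each side holds 2 homozygotes and 1 heterozygote, so the split runs within both genotypes.

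In the CH line, made from the single embryonic stem cell clone CH0516, a gene trap interrupts *Klf3* in its intron 1; the gene encodes a zinc finger repressor of the Krüppel-like family. *Klf3* CH homozygous embryos carry the trap on both alleles and *Klf3* CH heterozygous embryos on 1 allele. The other 11 arrays are of 4 *Klf3*+/+ (WT), 4 *Klf3* H275R/+ and 3 *Klf3* H275R/H275R embryos of the same nominal age, where H275R is an ENU-induced point mutation in the DNA-binding domain, and no array was treated with any agent. All came from timed matings, and the sources used here do not state the litter, the sex or a finer stage. The paper describes its gene trap mutants as of a mixed strain background that includes B6, and its H275R mice as phenotyped largely on B6. What strain background contributes to any difference below was not tested. Values are on the log2 scale of the robust multiarray average (RMA), on which 1 unit is a 2-fold difference.

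At midgestation the mouse embryo is changing in many tissues at the same time. Mesenchyme condenses and turns into cartilage that lays down aggrecan, matrilins and fibril collagens, and bone forms later in and around that cartilage. Myoblasts leave the cycle, fuse and build sarcomeres, while the liver takes over the making of plasma proteins and of red cells. The first red cells, from the yolk sac, carry embryonic globins and are then outnumbered by definitive cells from the liver. In the neural tube, dividing progenitors held by Notch signalling give way to neurons, and the RNA-binding protein LIN28 recedes as the let-7 microRNAs mature. An embryo that is some hours older than its neighbour can therefore differ from it in all of these programmes. Whether age parts the sides described here was not tested.

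The table holds 39137 probe sets, which give 22180 genes with a gene symbol of their own. Medians of the arrays lay between 6.68 and 6.78, the 6 CH arrays correlated with each other at 0.982 to 0.992 over all probe sets, and 0 pairs of arrays were identical. *Klf3* itself was low in homozygotes on both sides: it was at 5.62 and 6.13 in CH homozygotes 2 and 4 and at 5.27 and 5.73 in CH homozygotes 1 and 3. CH heterozygotes 2 and 1 had 9.09 and 9.64, near the 9.33 to 9.80 of the 10 arrays that remain when WT 4 is set aside. The sides are not alike in sex: *Kdm5d*, which lies on the Y, was at 9.52 in CH homozygote 3 and 9.58 in CH heterozygote 1 and at 3.79 to 4.24 in the other 4 CH arrays. *Xist*, the RNA that coats the inactive X chromosome, was at 12.84 to 12.99 in those 4 arrays and at 6.15 and 6.64 in CH homozygote 3 and CH heterozygote 1, and its difference between the sides was 4.43, or 0.13 over the 4 arrays alone. CH heterozygote 1 also had the highest mean of 13 hypoxia response genes, 9.86, against 9.04 to 9.31 in the other 5 CH arrays.

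Marker genes named with the choice separated the sides. *Comp*, a cartilage matrix protein, was at 7.20 and 7.01 in homozygotes 2 and 4 and 6.64 in heterozygote 2 of the more mature side, and at 6.14 and 6.0 in homozygotes 1 and 3 and 6.13 in heterozygote 1 of the less mature side. All values below follow this order of arrays. *Hapln1*, which links aggrecan to hyaluronan, was at 9.75, 9.83 and 9.35 on the more mature side and at 8.71, 8.77 and 8.61 on the less mature side. Neither gene overlapped between the sides, as the choice required. The mean of 17 cartilage matrix genes was 8.31, 8.22 and 8.09 against 7.14, 7.15 and 7.04, again with no overlap. WT 4, at 7.09, lay among the less mature arrays by this mean, and the other 10 arrays, at 7.40 to 7.70, lay between the sides. Both marker genes alone placed the arrays differently: in those 10 arrays *Hapln1* was at 8.46 to 8.74 and *Comp* at 6.05 to 6.29, at or near the less mature side, and WT 4 had 8.53 and 5.74.

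Over all probe sets, 330 were higher on the more mature side by at least 1 log2 unit with no overlap between the arrays of the sides, which is 0.843% of 39137. In the other direction 46 were lower, or 0.118%. The median difference over all probe sets was −0.03. Those with a gene symbol of their own give 278 higher and 34 lower genes. Members just inside and just outside the limit differed by 1.0005 and 0.9998 in the higher direction and by −1.0050 and −0.9991 in the lower, so the limit falls in a continuous range. With no minimum difference, 3446 genes were higher without overlap (15.5% of 22180) and 3601 were lower (16.2%), and these shares are the background for the gene lists below. Restricted to the 4 CH arrays with low *Kdm5d*, where CH homozygote 1 alone stands for the less mature side, 411 probe sets were higher and 99 lower, and 310 of these were among the 376 counted over all 6 arrays.

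The first principal component of the 6 arrays held 43.8% of their variance and parted the sides, at 26.2, 33.4 and 22.6 against −26.4, −19.8 and −35.9. Over all probe sets, the difference between the homozygotes and that between the heterozygotes correlated at 0.517, a description over probe sets that share arrays and are not independent. For the counted probe sets, the count itself asked for a difference over both genotypes. The 330 higher probe sets had a median difference of 1.23 between the homozygotes and of 1.40 between the heterozygotes, and the 46 lower ones of −1.16 and −1.38. Mean values of the 330 were 8.17, 8.25 and 8.10 against 6.81, 6.90 and 6.59. Of the arrays that took no part in the choice, WT 4 (7.0) and H275R hom 2 (6.99) were nearest to the less mature side, and the remaining 9 lay at 7.27 to 7.39. The mean of the 46 was 7.01, 6.98 and 6.98 against 8.28, 8.13 and 8.44, with the 11 other arrays at 7.72 to 8.01.

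**Figure D1:**
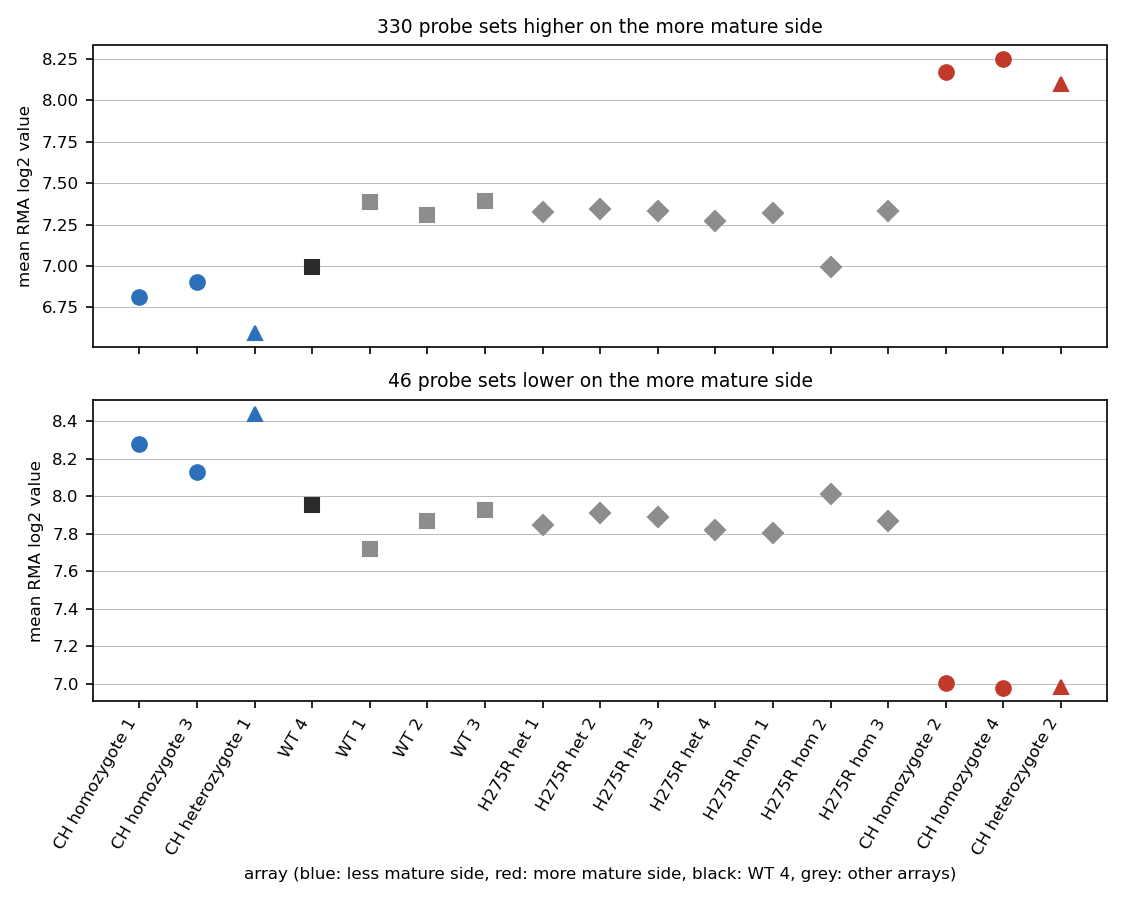
Mean RMA log2 value of the 330 higher and the 46 lower probe sets in each of the 17 arrays (circles, CH homozygotes; triangles, CH heterozygotes; squares, WT; diamonds, H275R embryos). The CH arrays lie apart because these probe sets were picked from them, and the 11 other arrays, from 6.99 to 7.39 in the upper panel, fall between.

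Cartilage matrix genes were higher as a group. Of 17 measured, 15 lay higher without overlap and 0 lower, with a median difference of 0.95, and this list holds the genes used for the choice. *Acan*, which encodes aggrecan, was at 9.47, 9.15 and 8.91 against 6.71, 6.97 and 6.42, a 5.58-fold difference. *Cnmd*, the chondrocyte and tendon protein chondromodulin, was 5.01-fold higher, at 9.56, 9.66 and 9.36 against 7.27, 7.37 and 6.96. *Matn1*, a matrilin of mature cartilage, was at 8.41, 8.11 and 7.92 against 5.91, 5.97 and 5.94. The sides stood far apart in these genes and their arrays close together within each side. *Col2a1*, the main cartilage collagen, differed less: it was at 10.39, 9.95 and 9.84 against 9.73, 9.71 and 9.63, a difference of 0.37, and the collagen genes *Col9a2* and *Col11a2* were higher by 0.30 and 0.21.

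Transcription factors that start the cartilage programme did not follow its matrix. Of 15 chondrocyte regulators, 3 lay higher and 6 lower without overlap, and the median difference was −0.17. *Sox9*, the founding factor of chondrocytes, was at 11.02, 10.24 and 10.30 against 11.20, 10.74 and 11.35, and its sides overlapped. *Sox6*, a partner of SOX9 in differentiating chondrocytes, lay higher by 0.42, while *Twist1* and *Foxc2*, factors of undifferentiated mesenchyme, lay lower by 0.54 and 0.56. *Gdf5*, a joint signal, lay higher by 0.63 on the probe set used, but another probe set of the gene had −0.15 with overlap.

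Genes of bone were divided. The largest difference of 13 hypertrophy and bone genes was that of *Ibsp*, bone sialoprotein of the mineralizing matrix, at 8.78, 8.60 and 8.52 against 5.12, 5.17 and 5.27, a 10.9-fold difference. Its values in all 11 other arrays, from 5.18 to 5.66, were at the level of the less mature side and not between the sides. *Phex*, an osteoblast peptidase gene, was at 8.08, 8.15 and 7.77 against 6.85, 6.64 and 6.11. *Sp7*, the osterix factor that commits cells to the osteoblast fate, was at 7.35, 7.43 and 7.26 against 6.25, 6.66 and 6.24. In all 6 of the 13 lay higher and 1 lower without overlap, with a median of 0.06. *Col10a1*, the collagen of hypertrophic cartilage, lay higher by 0.49, and *Ihh* and *Mmp13*, also of hypertrophic chondrocytes, were at 0.06 and −0.05 with overlap.

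Most genes of tendon and loose connective tissue separated the sides. Of 12 tendon and joint genes, 9 lay higher without overlap and 0 lower, with a median of 1.19, and of 19 connective tissue matrix genes 17 lay higher and 1 lower, with a median of 1.0. *Aspn*, which encodes the collagen-binding proteoglycan asporin, had the largest difference of any gene: 9.87, 10.05 and 9.66 against 5.48, 5.33 and 4.96, or 24.3-fold in the measured values. Whether values this low, here or in *Ibsp*, stood above background was not tested, and against background such a fold would be a lower bound. WT 4 (5.67) was close to the less mature arrays for *Aspn*, and the other 10 arrays spread from 6.36 to 8.13 between the sides. *Ogn*, or osteoglycin, was 7.30-fold higher, at 10.26, 10.76 and 10.60 against 7.54, 8.42 and 7.05. *Thbs2*, a thrombospondin of fibroblasts, was at 9.79, 9.91 and 9.65 against 7.72, 8.06 and 7.67. *Tnmd*, or tenomodulin, a marker of maturing tendon cells, was at 7.60, 8.01 and 7.52 against 5.94, 6.28 and 5.52, whereas the early tendon factor *Scx* had a difference of −0.04 with overlap. *Dpt*, the dermal matrix protein dermatopontin, was 6.31-fold higher, at 9.02, 9.34 and 8.74 against 6.52, 6.26 and 6.33.

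Several of these genes stand next to each other in the genome. On chromosome 13 the small proteoglycan genes *Ecm2*, *Aspn*, *Omd* and *Ogn* follow in this order, and all 4 were higher without overlap, by 0.60, 4.60, 0.69 and 2.87. *Omd*, at 4.18, 4.70 and 4.73 against 3.87, 3.82 and 3.85, stayed near the low end of the arrays' range. On chromosome 10 the block *Dcn*, *Lum*, *Kera* and *Epyc* was higher by 1.64, 1.0, 1.91 and 1.55. *Dcn*, or decorin, was at 11.80, 11.99 and 11.81 against 10.17, 10.42 and 10.08. Lysyl oxidase, which cross-links collagen and elastin and is encoded by *Lox*, was at 10.60, 10.71 and 10.58 against 8.62, 8.99 and 8.50.

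Skeletal muscle genes separated the sides without exception among those measured: all 20 contractile and excitation genes lay higher without overlap, by 0.38 to 1.77, with a median of 1.16. *Casq2*, a calcium-binding protein of the sarcoplasmic reticulum, was at 8.22, 8.79 and 8.41 against 6.63, 7.19 and 6.30. *Myh3*, the embryonic myosin heavy chain, was at 9.34, 9.73 and 9.44 against 7.81, 7.88 and 7.62. *Neb*, the nebulin ruler of the thin filament, was at 9.48, 9.99 and 9.90 against 8.24, 8.58 and 7.71. Of the 20, 11 reached 1 log2 unit, and *Ckm*, the muscle creatine kinase, had the smallest difference, 0.38. For *Myh8*, the perinatal myosin, the difference of 1.35 on the probe set used was not seen on another, at 0.03.

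Upstream of the sarcomere the list was mixed. Of 12 myogenic progenitor genes and factors, 2 lay higher and 3 lower without overlap, with a median of 0.04. *Mymk*, the membrane protein myomaker that lets myoblasts fuse, was at 10.25, 10.06 and 9.99 against 8.86, 8.70 and 8.30. *Myog*, the myogenin factor of differentiation, was higher by 0.82, at 9.54, 9.51 and 9.16 against 8.75, 8.63 and 8.38. *Pax3*, the factor of migrating muscle progenitors and of the dorsal neural tube, ran the other way, at 8.58, 8.64 and 8.53 against 9.82, 9.61 and 9.66. The determination factors *Myf5* and *Myod1* differed by 0.03 and 0.29, both with overlap. *Six4* and *Eya1* were also lower without overlap, by 0.53 and 0.18, while *Pax7*, *Lbx1* and *Met* were at −0.29, −0.19 and 0.20 with overlap. *Mymk* and the contractile genes were thus high where *Pax3* was low, but the progenitor genes did not differ as a group.

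Heart muscle genes differed less, with 6 of 15 higher and 1 lower without overlap and a median of 0.11. *Sln* (sarcolipin) and *Actn2*, both shared with skeletal muscle, were higher by 1.84 and 1.39. *Tnnt2*, cardiac troponin T, was at 11.52, 11.69 and 11.44 against 10.98, 10.82 and 10.90. The remaining higher members, *Smpx*, *Ldb3* and *Myh7*, were at 0.55, 0.41 and 0.37. In RNA of whole embryos, heart and skeletal muscle cannot be told apart as the source of these higher values. *Myl7*, an atrial light chain, was lower by 0.63, and *Myh6*, *Nppa* and *Myl2*, chamber genes of the heart, differed by −0.28, 0.11 and −0.10 with overlap. Of 10 smooth muscle genes 5 were higher and 0 lower, with a median of 0.40 and *Myh11* leading at 0.95.

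Plasma protein genes of the liver lay higher for 20 of 24 measured, with 0 lower and a median of 1.18. *Ahsg*, which encodes fetuin-A, was at 10.25, 10.17 and 10.25 against 7.91, 7.59 and 7.41, a 6.0-fold difference. Fibrinogen was higher for each of its chains, by 2.10 for *Fgg*, 1.54 for *Fgb* and 1.39 for *Fga*. *Alb*, or albumin, was at 13.21, 13.22 and 13.22 against 11.87, 11.82 and 11.45, with the more mature arrays almost level. These are near the highest value of any probe set, 13.7, and the difference was 2.84-fold. *Serpina1d*, *Ugt2b34* and *Hc*, a protease inhibitor, a glucuronosyltransferase and complement C5, stood among the 15 largest differences, at 2.99, 2.44 and 2.33. The genes of late liver function *Tat*, *Apoc3* and *Fetub* were at −0.04, −0.13 and −0.01 with overlap. Of 10 genes of yolk sac endoderm, several of them shared with liver, 5 were higher and 1 lower; *Afp*, alpha-fetoprotein, was at 12.31, 12.21 and 12.06 against 11.23, 11.09 and 10.88, while *Lrp2*, the endocytic receptor megalin, was lower by 0.79.

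As liver and muscle genes lay higher together, the windows from 250 bases before to 50 bases after their first listed starts are shown for a few members, from RefSeq and build GRCm38.p6. GTTAAT, the core of the HNF1 motif of liver promoters, was searched on both strands, as were the E box CAGCTG, its variant CACCTG, the TATA box (TATAAA), the SOX core (ATTGTT) and 1 form of the CArG box of muscle promoters. Of 20 hepatocyte genes with a window, 7 held GTTAAT (35.0%), against 7.2% of 27025 windows of all genes. Counted from the start, its first base was at −32 in *Alb*, −29 in *Fgb* and −43 in *Fga*. The E box CAGCTG reads the same on both strands and is bound by myogenic factors. It was in 6 of 17 muscle windows (35.3%), against 16.1% of all. Lens had it in 6 of 19 windows (31.6%), cartilage in 4 of 13 (30.8%) and hepatocyte genes in 0 of 20. CACCTG was in 5 of 17 muscle windows (29.4%, against 20.0% of all) and TATAAA in 6 (35.3%, against 14.2%). The CArG form was in 0 of 17 muscle windows, and the SOX core in 1 of 13 cartilage windows (7.69%, against 10.9%). Capitals mark the motif, which on the other strand reads ATTAAC for GTTAAT, and a match is a description of the letters only.
*Alb*, chr5:90460620-90460919, plus strand: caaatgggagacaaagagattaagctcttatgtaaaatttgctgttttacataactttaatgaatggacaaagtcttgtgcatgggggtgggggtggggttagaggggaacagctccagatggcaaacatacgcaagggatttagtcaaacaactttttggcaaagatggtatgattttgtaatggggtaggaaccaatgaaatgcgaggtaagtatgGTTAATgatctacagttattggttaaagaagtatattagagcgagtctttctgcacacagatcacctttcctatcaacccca
*Fgb*, chr3:83049814-83050113, minus strand: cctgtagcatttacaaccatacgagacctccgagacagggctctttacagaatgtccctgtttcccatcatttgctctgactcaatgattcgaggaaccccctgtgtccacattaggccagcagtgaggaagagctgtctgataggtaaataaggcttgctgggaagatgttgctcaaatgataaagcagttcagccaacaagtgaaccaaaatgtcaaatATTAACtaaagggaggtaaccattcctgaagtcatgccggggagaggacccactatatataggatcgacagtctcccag
*Fga*, chr3:83025903-83026202, plus strand: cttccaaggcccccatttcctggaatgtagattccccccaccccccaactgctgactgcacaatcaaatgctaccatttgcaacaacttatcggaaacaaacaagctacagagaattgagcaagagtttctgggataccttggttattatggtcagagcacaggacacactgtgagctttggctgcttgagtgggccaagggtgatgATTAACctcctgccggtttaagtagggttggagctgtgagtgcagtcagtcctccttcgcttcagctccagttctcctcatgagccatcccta
*Mylpf*, chr7:127211358-127211657, plus strand: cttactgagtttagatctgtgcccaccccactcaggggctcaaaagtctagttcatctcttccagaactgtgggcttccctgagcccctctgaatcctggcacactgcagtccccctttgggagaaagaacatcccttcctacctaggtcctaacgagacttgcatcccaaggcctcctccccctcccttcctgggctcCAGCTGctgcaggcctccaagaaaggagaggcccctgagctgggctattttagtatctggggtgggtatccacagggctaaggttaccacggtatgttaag
*Chrna1*, chr2:73580289-73580588, minus strand: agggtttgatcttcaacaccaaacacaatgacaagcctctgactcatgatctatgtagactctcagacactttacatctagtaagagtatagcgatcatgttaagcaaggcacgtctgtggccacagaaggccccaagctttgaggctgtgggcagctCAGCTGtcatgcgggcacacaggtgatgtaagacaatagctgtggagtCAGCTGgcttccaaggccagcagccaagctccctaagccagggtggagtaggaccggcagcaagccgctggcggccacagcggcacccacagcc
*Mylpf*, a fast myosin light chain, was higher by 1.49 and *Chrna1*, a subunit of the muscle acetylcholine receptor with a pair of the motifs, by 1.35.

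Blood genes of primitive and of definitive red cells differed in opposite directions. *Hbb-bh1*, an embryonic β-like globin made in primitive red cells, had the largest lower difference among genes without overlap, at 6.98, 7.61 and 8.53 against 9.71 to 10.59, or 5.25-fold. *Hba-x*, the embryonic ζ-globin, was at 7.35, 7.03 and 7.45 against 7.82, 7.99 and 8.21. The third embryonic globin, *Hbb-y*, was at 11.85, 11.91 and 12.31 against 12.09, 12.24 and 12.63 with overlap. Of 17 definitive erythroid genes 13 were higher and 0 lower without overlap, with a median of 0.68. *Tspo2*, of late erythroblasts, was at 8.41, 8.70 and 8.34 against 6.71, 7.40 and 6.81, and the Rh-associated glycoprotein gene *Rhag* at 10.30, 10.62 and 10.68 against 9.15, 9.86 and 9.82. CH homozygote 1 was the lowest of the 6 arrays for both, and over the arrays with low *Kdm5d* the median of the list was 1.10. Adult globins had no probe set with a gene symbol of their own and are not reported. As each array is a bulk sample, more cells of a type and more RNA per cell cannot be told apart here or in any list.

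Genes of immune cells were also higher in part. Of 15 macrophage genes 9 lay higher and 0 lower, with a median of 0.64. *Mrc1*, the mannose receptor, was at 9.16, 9.25 and 9.08 against 8.15, 8.26 and 7.99, and *Adgre1*, a macrophage surface receptor, was higher by 0.83, but *Cd68*, *C1qa* and *Aif1* were at −0.04, 0.04 and 0.16 with overlap. *Cpa3*, a carboxypeptidase of mast cells and their precursors, was at 9.21, 9.35 and 8.59 against 5.53, 6.51 and 6.11, a 7.99-fold difference. The granule proteases *Ctsg*, *Mpo* and *Elane* of early granulocytes lay higher by 1.36, 0.94 and 0.81, and the late granulocyte genes *S100a8*, *S100a9* and *Camp* were at 0.12, 0.10 and −0.12 with overlap. *Lyve1*, a hyaluronan receptor of lymphatic endothelium and some macrophages, was at 9.62, 9.61 and 9.28 against 8.0, 8.14 and 7.52. *Fabp4*, a fatty acid binding protein of fat, macrophages and capillaries, was at 8.29, 7.94 and 7.28 against 5.96, 5.23 and 4.99.

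Epithelia and the lens gave smaller lists with steep members. Of 19 epidermal genes 10 were higher and 1 lower, led by the basal keratins *Krt15* and *Krt14* at 1.25 and 1.17 and by *Krtdap*, of differentiating keratinocytes, at 7.02, 7.10 and 6.52 against 5.72, 5.67 and 5.75. For *Krtdap* the 11 other arrays, at 5.55 to 5.87, lay at the level of the less mature side, as for *Ibsp*. The simple epithelial keratins *Krt8* and *Krt18* were at 0.05 and 0.08 with overlap. Of 20 lens genes 7 were higher and 1 lower, with a median of 0.16. *Cryba1*, a β-crystallin of lens fibres, was at 8.93, 9.70 and 9.10 against 6.40, 6.91 and 5.78. *Cryaa* was 4.48-fold higher on the probe set used and at −0.13 on another, and *Cryga*, a γ-crystallin, was higher by 1.84, whereas *Crygc*, *Crygb* and *Crygs* were between −0.02 and 0.10 with overlap. The 11 other arrays had *Cryga* at 5.26 to 6.07, near the less mature side. Gut epithelium had 6 of 12 higher and 0 lower, with *Fabp1*, shared with liver, at 1.38 and the hindgut factor *Cdx2* at 0.00.

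**Figure D2:**
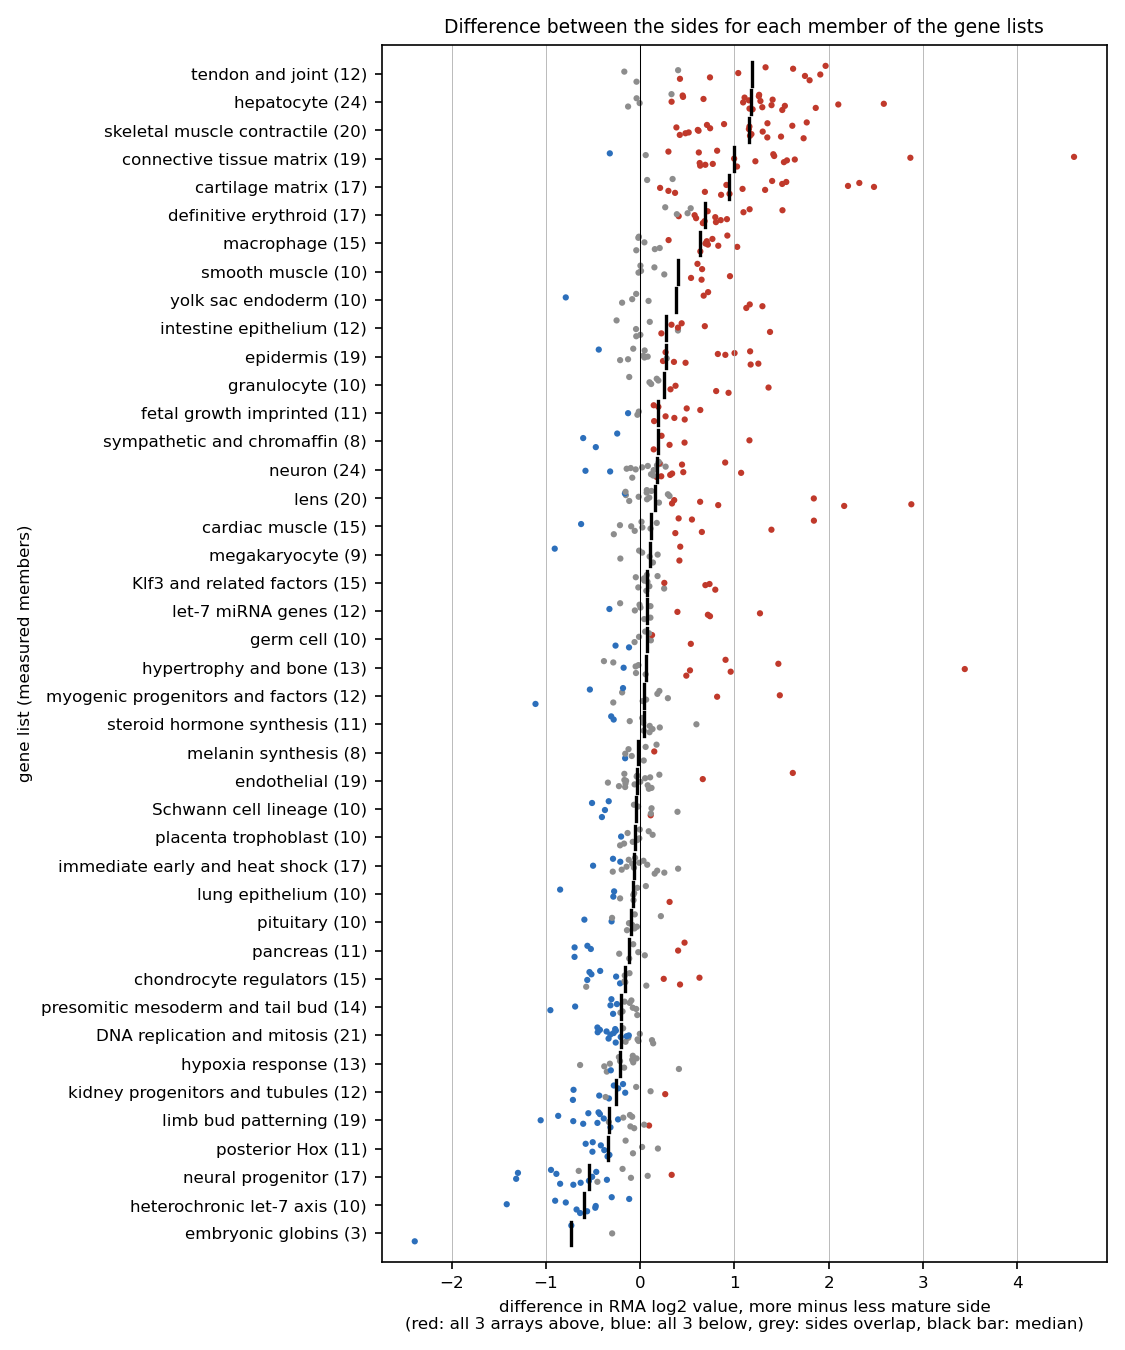
Difference between the sides in RMA log2 units for each measured member of the gene lists with 3 or more measured members, the sex-linked lists left out, with the black bar at the median of a list. Tendon (median 1.19), liver (1.18) and muscle (1.16) stand at the top, and neural progenitors (−0.54), the let-7 axis (−0.60) and embryonic globins (−0.73) at the bottom.

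Neural progenitor genes were lower on the more mature side: 11 of 17 lay lower without overlap and 1 higher, with a median of −0.54. *Hes5*, a Notch target that keeps progenitors dividing, was at 8.97, 8.58 and 8.60 against 10.25, 9.73 and 10.12, but another probe set of the gene gave −0.18 with overlap. *Sox2*, the factor of neural stem cells, was at 10.01, 9.80 and 9.64 against 10.77, 10.47 and 10.76. *Neurog1*, a proneural factor, was at 6.95, 6.54 and 6.51 against 8.18, 7.68 and 8.04. *Neurod4*, of neuronal precursors, was at 6.68, 6.74 and 6.79 against 8.66, 8.62 and 8.42, with the arrays of each side close together. The exception was *Slc1a3*, a glutamate transporter of radial glia, which was higher by 0.33.

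Among the 15 largest lower differences were 4 patterning genes of the neural tube. *Olig3* (−1.44), *Dbx1* (−1.30) and *Atoh1* (−1.29), which mark progenitor domains of spinal cord and hindbrain, and *Wnt8b* (−1.34), a signal of the forebrain midline, were lower without overlap. *Igdcc3*, an immunoglobulin superfamily gene of early neuroepithelium and mesoderm, was at 7.71, 7.48 and 7.47 against 9.60, 9.09 and 9.71. *Glra1*, a glycine receptor subunit, was at 7.53, 7.59 and 7.14 against 9.24, 9.03 and 9.22, so a gene of neurons was among the lower genes too. *Hsd11b2*, which inactivates glucocorticoids and is active in the fetal brain and kidney, was lower by 1.63. In *2610507I01Rik* (−1.54) and the histone gene *H4c17* (−1.56) the other arrays did not lie between the sides: the 10 without WT 4 were at 8.42 to 9.19 and 8.30 to 9.23, within or above the less mature range, and WT 4 was at 6.72 and 7.13. The difference of *H4c17* was −0.94 over the homozygotes alone.

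Neuronal genes differed less. Of 24 measured, 9 were higher and 2 lower without overlap, with a median of 0.18. *Neurod6*, a factor of postmitotic cortical neurons, was 8.48-fold higher, at 8.64, 8.77 and 8.28 against 6.09, 5.55 and 4.81. *Gria2*, an AMPA receptor subunit, was at 10.29, 10.23 and 10.14 against 9.34, 9.43 and 9.19. *Nefm*, a neurofilament of early projection neurons, was lower by 0.58, and the pan-neuronal *Tubb3* and *Elavl3* were at −0.08 and −0.14 with overlap. Of 8 sympathetic and chromaffin genes 5 were higher and 3 lower without overlap, with a median of 0.18. Highest was *Npy*, of the sympathetic lineage and central neurons, at 1.16, then *Chgb*, *Chga*, *Ddc* and *Th* at 0.47, 0.31, 0.23 and 0.14. *Hand2*, *Dbh* and *Slc18a2* were lower by 0.61, 0.47 and 0.24. In the Schwann cell lineage list 1 of 10 was higher and 4 lower, among them *Sox10*, lower by 0.41.

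MicroRNA genes stood on both ends. The probe sets report transcripts of the microRNA gene, not the mature molecule, so these values are of precursors. *Mir219a-2*, the gene of miR-219a, which in the mature brain acts in oligodendrocytes, was at 6.83, 6.71 and 6.63 against 8.04, 7.85 and 7.97. Let-7 genes ran higher in 4 of 12 and lower in 1, with a median of 0.08. *Mirlet7c-2* and *Mirlet7b*, neighbours on chromosome 15, were at 5.68, 3.95 and 4.18 against 3.47, 3.29 and 3.24 and at 5.53, 5.92 and 5.84 against 5.32, 4.43 and 5.32. CH homozygote 2 carried much of the first, whose difference was 1.27 with it and 0.73 without it, and CH homozygote 3 of the second, at 0.74 and 0.44. *Mirlet7c-1* on chromosome 16 was higher by 0.72, or by 0.46 without CH heterozygote 1, and *Mirlet7d* on chromosome 13 by 0.39. *Mirlet7f-1* was lower by 0.33, and its other probe set gave 0.23. The mature sequences, from RefSeq with build GRCm38.p6, are shown because every let-7 listed shares the seed GAGGUAG, by which microRNAs choose targets, and miR-219a has another. Capitals mark the seed, bases 2 to 8.
let-7c-5p (*Mirlet7c-2*, chr15:85706616-85706637, plus strand): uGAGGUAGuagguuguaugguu
let-7b-5p (*Mirlet7b*, chr15:85707325-85707346, plus strand): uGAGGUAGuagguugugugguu
let-7d-5p (*Mirlet7d*, chr13:48536078-48536099, minus strand): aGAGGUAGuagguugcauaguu
let-7f-5p (*Mirlet7f-1*, chr13:48537889-48537910, minus strand): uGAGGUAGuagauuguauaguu
miR-219a-5p (*Mir219a-2*, chr2:29845689-29845709, minus strand): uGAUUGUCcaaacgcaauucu

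Genes that let-7 represses or that act with LIN28 were lower on the more mature side. All 10 measured were lower without overlap, with a median of −0.60, against a background of 16.2% of genes. *Lin28a*, which blocks the processing of let-7 precursors, was at 6.16, 6.51 and 6.33 against 7.13, 6.83 and 6.96, and its paralogue *Lin28b* was lower by 0.56. *Hmga2*, a chromatin protein and classic let-7 target, was at 10.86, 10.70 and 10.79 against 11.48, 11.34 and 11.55. *Prtg*, or protogenin, a receptor of the early neural tube and mesoderm, was at 7.54, 7.54 and 7.35 against 8.95, 8.66 and 9.08. *Mycn* and *Arid3b* were lower by 0.90 and 0.79, although another probe set of *Arid3b* gave 0.03, and *Igf2bp3* and *Trim71* were lower by 0.48 and 0.47.

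Patterning genes of the trunk and limb were also lower on the more mature side. Of 14 genes of presomitic mesoderm and tail bud, 6 were lower and 0 higher, with a median of −0.20; *Dll3*, a Notch ligand of the somite clock, was at 7.05, 7.03 and 6.90 against 7.99, 7.78 and 8.07. Limb bud genes were lower in 11 of 19 and higher in 1, with a median of −0.33. *Sall4*, a zinc finger gene of limb buds and stem cells, was at 7.45, 7.13 and 7.38 against 8.56, 8.01 and 8.56, and another of its probe sets gave −0.20. *Shh*, the limb and midline signal, was at −0.06 with overlap. Posterior Hox genes were lower in 7 of 11 and higher in 0. *Hoxd11*, which shapes the forearm, was at 8.72, 8.71 and 8.65 against 9.28, 9.20 and 9.33. For this list the 10 arrays other than WT 4 did not lie between the sides. Their means were 7.94 to 8.16, above the 7.54 to 7.68 and the 7.88 to 7.90 of the more and the less mature side. Among kidney genes 8 of 12 were lower and 1 higher, with *Six2*, which holds nephron progenitors, and *Lhx1* both lower by 0.71. Kidney means of the same 10 arrays, 8.80 to 8.93, were at or above the 8.69 to 8.82 of the less mature side.

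Genes of cell division were lower by little but in many members: 13 of 21 lay lower and 0 higher, with a median of −0.21. *Cdc20* and *Aurkb*, of mitosis, were lower by 0.45 each and *Mcm2*, of the replicative helicase, was at 10.71, 10.72 and 10.82 against 11.05, 11.10 and 11.10. *Mki67* and *Pcna*, common marks of dividing cells, were at 0.14 and 0.00 with overlap. Imprinted genes of fetal growth were higher in 8 of 11 and lower in 1, with a median of 0.19, led by *Phlda2* at 0.64, which was at 0.29 over the arrays with low *Kdm5d*, and *Dlk1* at 0.47.

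Some lists did not separate the sides. Of 19 endothelial genes 2 were higher, *Lyve1* and *Erg*, and 0 lower, with a median of −0.03. Trophoblast genes, which would mark placenta left on an embryo, were all low, with list means of 4.94 to 5.06 in the 6 arrays, and 1 of 10 was lower. Hypoxia genes were lower in 1 of 13, and their median of −0.21 was 0.04 between homozygotes and −0.69 between heterozygotes. *Bnip3*, a hypoxia-induced mitophagy gene, was at 8.84, 8.65 and 8.52 against 9.04, 8.52 and 10.37. Immediate early and heat shock genes were lower in 3 of 17, with a median of −0.07. In the Klf family 4 of 15 were higher and 0 lower: *Klf1*, of red cells, by 0.80, the epithelial *Klf5* and *Klf4* by 0.74 and 0.69, and *Klf6* by 0.26.

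**Figure D3:**
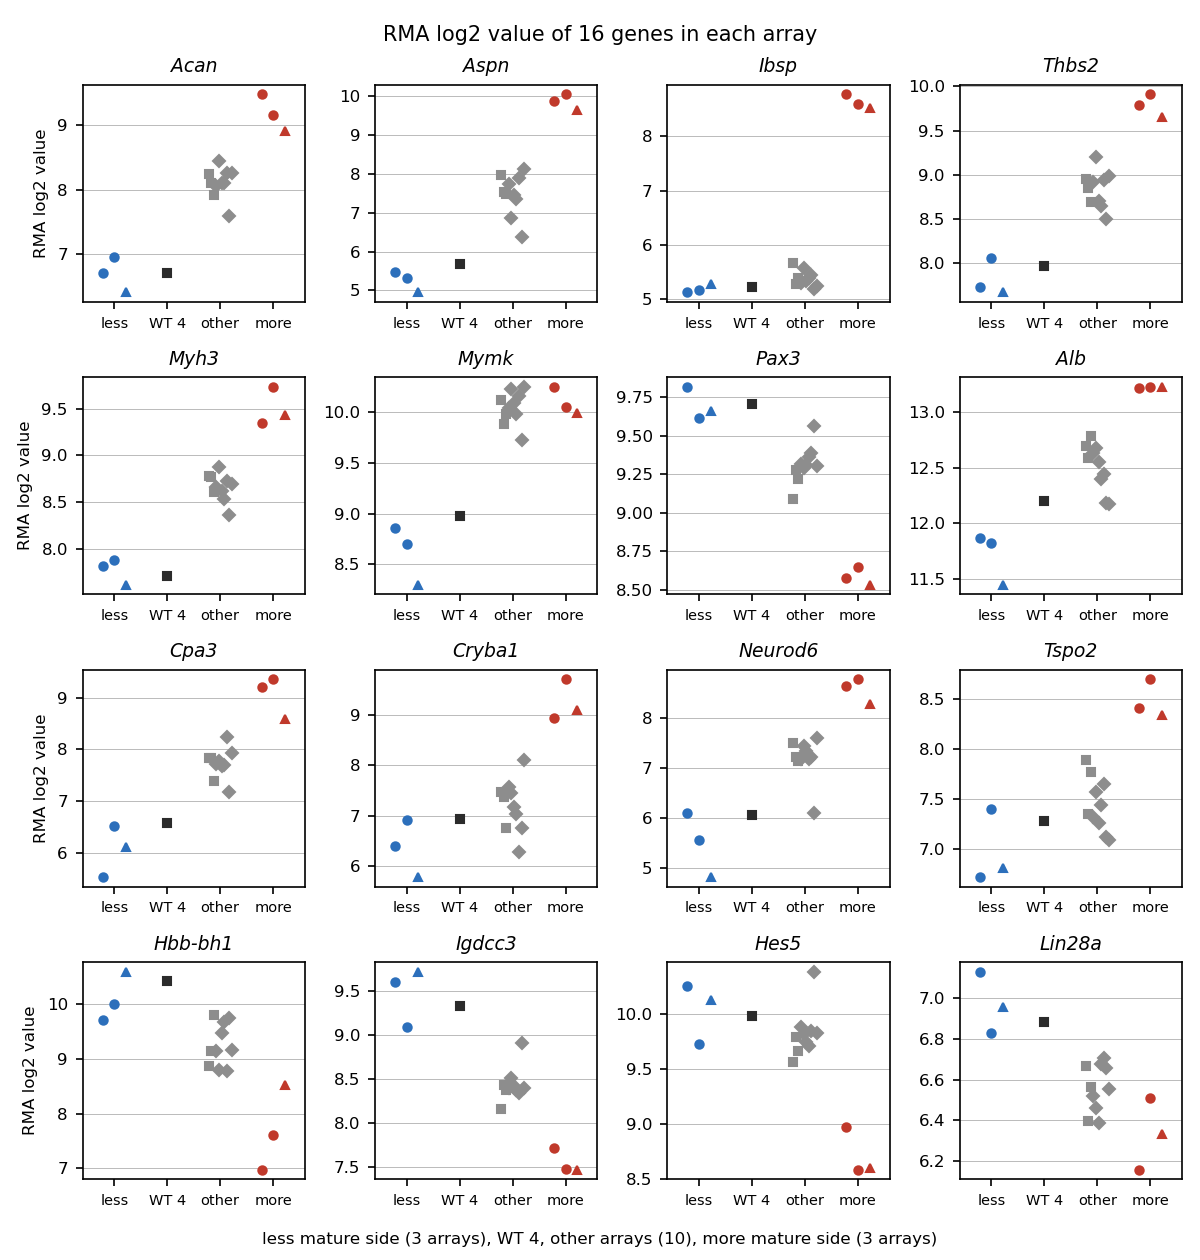
RMA log2 value of 16 of the genes described, in the less mature arrays (blue), WT 4 (black), the 10 other arrays (grey) and the more mature arrays (red), with a scale of its own for each gene. *Acan*, *Aspn* and *Myh3* place the other arrays between the sides, and *Ibsp* places them with the less mature side.

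Whether the same genes vary together in embryos that took no part in the choice was asked in the 11 WT and H275R arrays. A linear model in limma gave each probe set a mean per genotype and a slope on the cartilage score, the mean of the 17 cartilage matrix genes, whose own probe sets were left out of the test. Of 39120 probe sets tested, 394 had a positive slope (1.01%) and 143 a negative slope (0.366%) at an adjusted p under 0.1, and 4517 had an unadjusted p under 0.05. This count rested on WT 4, whose score was 7.09 against 7.40 to 7.70 in the other 10 arrays: without it 0 passed, with 2898 at an unadjusted p under 0.05. Without WT 1, WT 2, H275R het 3 or H275R het 4 the count was 301, 237, 320 or 357. As no other of the 11 arrays has a score that low, the slopes and what else sets WT 4 apart cannot be told apart. WT 4 also had the highest mean of 10 trophoblast genes, 5.30 against 4.89 to 4.98 in the other 10 arrays. Of these genes 1 passed, *Tpbpa*, with a slope of −4.50. Of the 537 that passed, 521 kept the sign of their slope without WT 4. Whether embryos were littermates is not given, so the p-values measure only the spread between these samples.

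Muscle led this test. *Casq2* had a slope of 2.44 ± 0.19 (SE) log2 units per log2 unit of the score (limma adjusted p = 0.0056, n = 11), and 2.48 without WT 4 (adjusted p = 0.49, n = 10). *Myh3* followed with 1.97 ± 0.16 (adjusted p = 0.0056) and *Mymk* with 2.03 ± 0.17 (adjusted p = 0.0058, limma). Next were *Agtr2*, an angiotensin receptor of fetal mesenchyme (1.88), *Egfl6*, a matrix protein of skin and cartilage surroundings (2.41), *Lox* (2.16), *Rtl3* (2.15), *Thbs4*, a tendon thrombospondin (1.90), and *Papss2*, which supplies sulphate for proteoglycans (2.01). *Zgrf1*, a helicase gene, had the smallest p of the negative slopes, −1.70 ± 0.16 (limma adjusted p = 0.0093), and a difference between the sides of only −0.29. Each of these 10 genes kept its sign and lost its call without WT 4. All 10 also lost it with a score from *Comp* and *Hapln1* alone (limma adjusted p = 0.22 to 0.26) and with the replicate number as a block (adjusted p = 0.69).

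By list, 10 of 20 skeletal muscle genes passed with a positive slope, as did 6 of 12 tendon genes and 9 of 19 connective tissue genes, with 0 negative. Liver had 1 of 24, *Ahsg* (slope 2.31), and definitive erythroid genes 0 of 17, with a median slope of −0.49, or −0.22 without WT 4, opposite in sign to their difference between the sides. WT 4 had a mean of 9.43 for the erythroid list, above the 8.35 to 9.35 of the 10 other arrays and the 8.54 to 9.11 of the less mature side, so this list set WT 4 apart from the less mature arrays that it resembled in cartilage and muscle. *Hbb-bh1* and *Hba-x* passed with slopes of −2.70 and −0.93 (−4.64 and −1.14 without WT 4), *Pax3* with −1.0 and *Prtg* with −1.18. Of 17 neural progenitor genes 0 passed, with a median slope of −0.19. Limb bud and presomitic genes also had 0 passing, with median slopes of −0.04 and −0.28. Posterior Hox and kidney genes had median slopes of 0.11 and 0.15, opposite in sign to their difference between the sides. In each of these 2 lists 1 gene passed, *Hoxc12* (1.41) and *Osr1* (0.94), both with a positive slope.

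**Figure D4:**
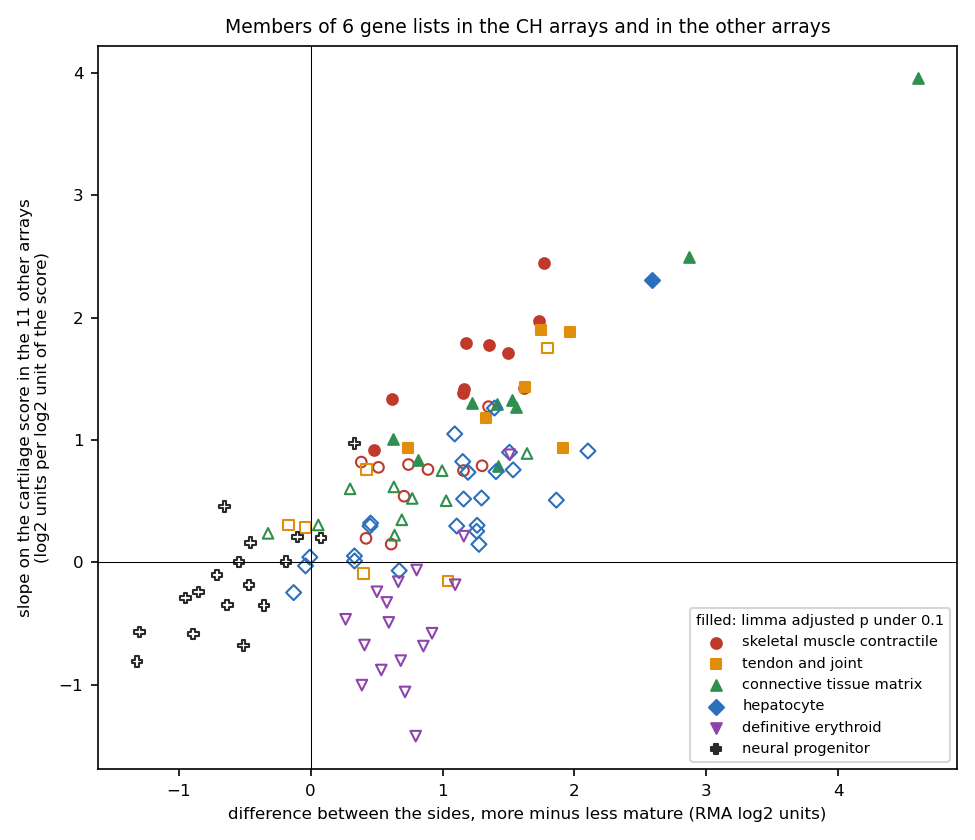
Difference between the sides (horizontal, RMA log2 units) and slope on the cartilage score in the 11 other arrays (vertical, log2 units per log2 unit) for members of 6 gene lists, filled where the limma adjusted p was under 0.1. Muscle, tendon and connective tissue genes lie at upper right, with *Casq2* at 2.44, and erythroid genes, median −0.49, mostly below the line of zero slope.

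Of the 330 higher probe sets 322 were tested, 278 had a positive slope and 79 of these passed, while 1 passed with a negative slope. The share of positive slopes over all probe sets tested was 45.1%. Of the 46 lower probe sets 38 had a negative slope and 6 passed, and 1 passed with a positive slope: *2610507I01Rik*, at 3.92 ± 0.53 (limma adjusted p = 0.021, n = 11), and at 1.58 without WT 4 (adjusted p = 0.74, n = 10). Leaving out WT 4 gave 274 positive of 322 and 36 negative of 46, with 46.4% positive over all. Seen from the test, 455 of the 537 passing probe sets differed between the sides in the direction of their slope, 296 of them without overlap, and 12 lay without overlap in the opposite direction.

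The 10 arrays other than WT 4 lay wholly between the sides for 94 of the 330 higher and 15 of the 46 lower probe sets. WT 4 lay within or beyond the less mature range for 183 of the 330 and 27 of the 46. Thus WT 4 resembled the less mature CH arrays in cartilage (7.09), tendon (7.88, less mature side 7.73 to 7.88) and muscle (7.71, less mature side 7.64 to 7.74), but not in definitive erythroid genes. H275R hom 2 and H275R hom 3 had the lowest erythroid means, with cartilage means of 7.40, the lowest of the 10 arrays other than WT 4, and 7.61. Outside the CH line, WT 4 and then H275R hom 2 were lowest in the cartilage, tendon, skeletal muscle and connective tissue lists. The definitive erythroid list had another order, with WT 4 highest.

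**Figure D5:**
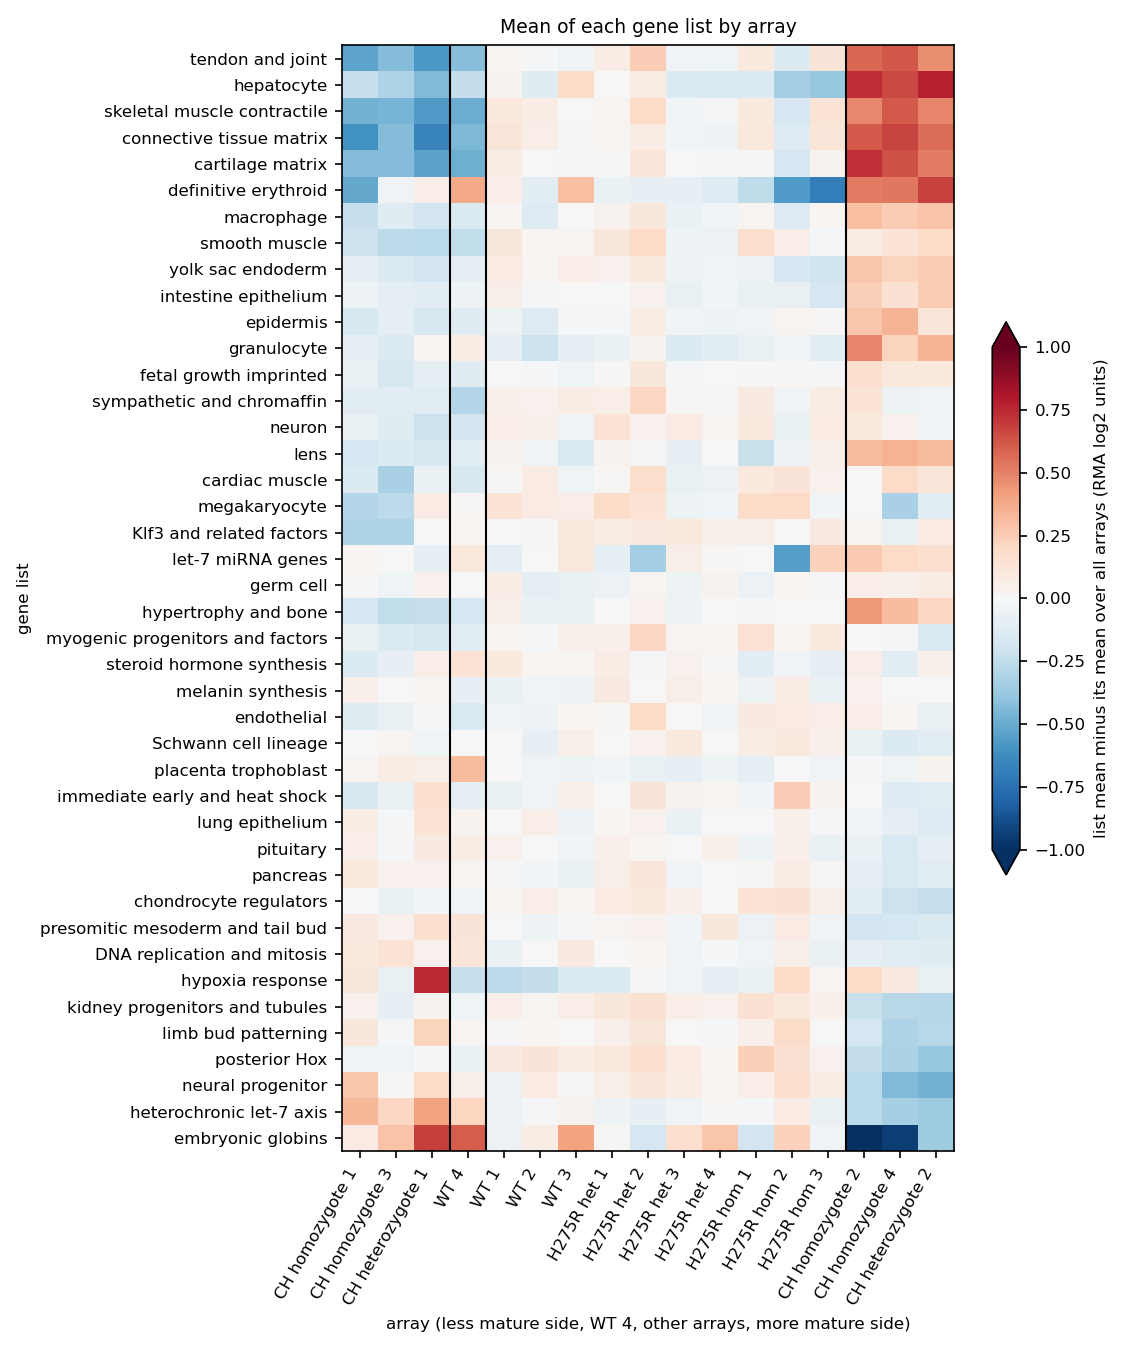
Mean of each gene list in each array, as the difference from its mean over all 17 arrays in RMA log2 units (red higher, blue lower). The 3 less mature arrays and WT 4 share low cartilage, tendon and muscle means, the 3 more mature arrays share high ones, and CH heterozygote 1 alone is high for hypoxia genes at 9.86.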

How the data were processed

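Deposited values were log2 intensities that the authors had made with RMA, with Partek also named in the submitters' processing notes, from 17 Affymetrix arrays of 1 RNA sample each. The sources used here state neither the summary level nor whether all arrays were normalized together. 0 value columns lacked a sample. How many arrays there are sets the precision. Of 39137 probe sets 23521 carried 1 gene symbol, 1820 carried several and 13796 were not listed, and symbols came from the platform annotation, 23328 of them matched to RefSeq. Probe sets with several symbols were not named.

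Genotypes came from the sample labels. The sides were selected on cartilage genes of these arrays, so their differences (mean of 3 arrays minus mean of 3) were not tested. Probe sets were counted where the sides did not overlap and differed by at least 1 log2 unit. In the 11 other arrays, limma 3.58.1 in R 4.3.3 fitted a mean per genotype and a slope on the cartilage score, with Benjamini-Hochberg adjustment over 39120 probe sets at a threshold of 0.1, and the fit was tested on simulated data. Tables were made with Python 3.11.15.

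Members and the 45 gene lists (630 genes, 579 measured) were chosen with earlier results of these data known. Named genes were Comp, Hapln1 and Klf3, the 15 largest differences in each direction, up to 6 members of each list without overlap (or the 2 largest differences where none was) and at most 10 passing genes ranked by adjusted p for the slope. A gene with several probe sets was represented by the one with the highest mean over all arrays. Other genes, and those given as overlapping, were picked after their values were seen. Alternatives changed the threshold, normalization, averaging, probe sets, arrays, score and model, and the setting restricted to arrays with low Kdm5d was chosen after seeing the data.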

Additional observations from a re-analysis of the deposited data

Results flagged for a closer look

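In groups of 4 arrays, a sample was looked at when its gap to the nearest other array was an unusually large part of the group's range (Dixon's rule). Of 158 such groups, of list means and of single named genes, 5 passed, all of them list means, and chance alone flags about 1 in 20. H275R het 2 stood above the other H275R heterozygotes in cartilage matrix genes, at 7.70 against 7.56 to 7.57. WT 4 stood below the other WT arrays in tendon genes, at 7.88 against 8.28 to 8.33, in skeletal muscle genes, at 7.71 against 8.21 to 8.31, and in sympathetic genes, at 7.67 against 8.0 to 8.03. It stood above them in trophoblast genes, at 5.30 against 4.93 to 4.98.

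The mean of the endothelial list differed between the sides by 0.14 in the homozygotes and by −0.06 in the heterozygotes, opposite in sign. This difference between the genotypes was not tested.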

How the results depend on the processing

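The 376 probe sets counted between the sides became 1487 at 1.5-fold and 9933 with no minimum difference, as the looser limits require. Other settings gave 265 to 417, leaving out 1 array gave 335 to 469, and the 4 arrays with low Kdm5d, a setting chosen after seeing the data, gave 510. The 537 probe sets passing the slope test became 0 with the replicate number as a block, 0 with a score from Comp and Hapln1, 150 with a score from collagen genes, 1204 with no genotype term, 849 with an intensity trend, 211 at an adjusted p under 0.05, 1099 of 19557 above the median level, and 10761 with array weights, whose fit stopped before it converged. The cause was not tested. Leaving out 1 array gave 0 to 478, with 0 only without WT 4. A robust fit gave 506 and a second quantile normalization 641. Same-numbered arrays of different genotypes correlated at −0.11 to 0.33, and differently numbered ones at −0.29 to 0.21. Among the same-numbered pairs only H275R hom 2 with WT 2 was negative. The main fit did not pair arrays by number, and whether the numbers mark a pairing was not tested. No value turned its direction past a threshold. Each named gene and each list was compared once per setting. Of these comparisons, 2258 gene differences stayed within the spread between arrays and 62 moved, and of list medians 378 and 62. For the 10 genes named for the slope alone, 180 calls over the settings held and 30 were lost. Those lost were without WT 4, with the replicate block and with the score from Comp and Hapln1.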
